A study of Caenorhabditis elegans with 10 samples.

Results

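The pals genes are a large family of *C. elegans* genes named for a protein signature shared with mammalian ALS2CR12. A part of them, together with a set of ubiquitin ligase genes and single genes such as *eol-1*, is switched on when microsporidia or the Orsay virus infect intestinal cells, a programme called the intracellular pathogen response. The set described here holds every gene named pals- in the deposited table, 28 of the 38 with such a name, and *cul-6*, *skr-3*, *skr-4*, *skr-5*, *eol-1*, *drh-1*, *rcs-1* and *pnp-1*, which makes 36 of 15106 genes. *pals-7*, *pals-8*, *pals-10*, *pals-11*, *pals-12*, *pals-13*, *pals-21*, *pals-28*, *pals-29* and *pals-40* were not analysed here.

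As background, *pals-22* represses the response and its neighbour *pals-25* promotes it, and the pair shares an operon. *pals-5* is the gene whose promoter is most used to report the response. *cul-6* encodes a cullin, the scaffold of a ubiquitin ligase, *skr-3*, *skr-4* and *skr-5* encode Skp1-related adaptors and *rcs-1* a RING protein of the same ligase. *drh-1* encodes a RIG-I-like sensor of viral RNA, *pnp-1* a purine nucleoside phosphorylase that holds the response down, and *eol-1* a relative of the DXO decapping nuclease.

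RNA came from whole, synchronized young adults grown at 20°C, in 2 libraries each of *smg-1*, *smg-2* and *clk-2* mutants and of N2, the wild type. A further library each of *clk-2* and N2 came from animals moved to 25°C for 3 hours, which the labels call heat shock. The study made this shift to inactivate CLK-2 in temperature-sensitive mutants. Its figure names 20°C permissive and 25°C restrictive for *clk-2*, while its methods give a permissive temperature below 20°C. The figure also reports a modest rise of NMD targets in *clk-2* at 20°C, so full CLK-2 function at 20°C cannot be assumed. Between *clk-2* at 25°C and *clk-2* at 20°C, loss of CLK-2 function and heat itself can thus not be told apart. The study gives the alleles as *smg-1(rrr59)* and *smg-2(rrr60)*, each an isolate of a mutagenesis screen and with the GFP reporter R-1 driven by the ubiquitous *dpy-30* promoter, and as *clk-2(qm37)*, a temperature-sensitive allele listed with the reporter R-2. N2 carries neither reporter, so a mutation and its reporter cannot be told apart here. SMG-1 is a kinase and SMG-2 the UPF1 helicase of nonsense-mediated mRNA decay, NMD, and CLK-2 is the orthologue of TELO2, which helps kinases of the SMG-1 family to assemble; the study compared the strains to ask whether *clk-2* acts in NMD. The columns read as *clk-2* carry a name that matches no *clk-2* allele of the study and joins parts of the names qm37 and mn125, both temperature-sensitive, so which of them was sequenced is not certain. No other strain fits these columns. The labels do not say that replicates came from separate cultures, so p-values measure only the spread between these libraries. The N2 pair, the reference of each mutant, agreed least. Replicates correlated at 0.975 in N2, 0.979 in *clk-2*, 0.990 in *smg-1* and 0.991 in *smg-2*. A chi-square of their reads per degree of freedom was 22.8 in N2, against 8.41, 5.52 and 6.74 in *clk-2*, *smg-1* and *smg-2*.

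Values are normalized counts, reads divided by the size factor of the library. Library totals ran from 3051836 to 14209955 reads. Both shallow libraries were *clk-2*, replicate 1 at 20°C and the one at 25°C, in which 1 read was worth 2.59 and 2.93 normalized counts. In the mutant strains *smg-1* mRNA was higher in *smg-1*, at 6206 and 5817 normalized counts, against 2222 and 2021 in N2, but it was called higher in *smg-2* and *clk-2* as well, by 1.15 and 0.92 on the log2 scale against 1.5 in *smg-1* (limma adjusted p = 7.5e-05, 0.00024 and 1.4e-05). *smg-2* mRNA was higher in *smg-2*, at 1620 and 1673, against 1202 and 987 in N2. *clk-2* mRNA was 497 and 670 in *clk-2*, against 598 and 485 in N2, so these levels do not check the *clk-2* label. Sperm markers fell in *clk-2*, 32 of 34 of them, with a sum of 7665 and 7699 normalized counts, against 26071 and 32747 in N2. Of 4 hypodermis markers 3 rose in *clk-2*, with a sum of 3427 and 2884, against 489 and 1704 in N2. Of 6 intestine markers 3 rose and 1 fell, with a sum of 36464 and 34411 in *clk-2*, against 25609 and 32340 in N2, and none of the 6 was at 0 in any library. The 5 germline and 3 body muscle markers had median log2 changes of -0.06 and -0.20 in *clk-2*. Of 4 neuron markers 1, *unc-119*, rose, by 1.68. The study lists the reporters of the mutant strains with *unc-119(+)*, so a change of the native gene and the inserted copy cannot be told apart. The part of these markers in the results below was not tested, and in whole animals fewer cells of a type and less RNA per cell cannot be told apart.

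Changes at 20°C were tested with limma on log2(normalized count + 1), with the 8 libraries in one fit, and called at a Benjamini-Hochberg adjusted p under 0.05. Of the 36 genes, 29 passed the filter of a mean of 10 normalized counts in these libraries. The 7 below it were *pals-2*, *pals-3*, *pals-9*, *pals-27*, *pals-30*, *pals-31* and *skr-5*. *pals-5*, *pals-6*, *pals-33*, *pals-37*, *pals-39* and *eol-1* passed only because of the *clk-2* libraries. Without the reads of *clk-2*, 11 of the 36 genes would hold fewer than 51 reads, the lowest total of any gene, so that some genes may be in the table for their level in *clk-2* alone. Counts of rises in *clk-2* therefore describe these genes and cannot stand for the whole family.

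In *clk-2* at 20°C, 11 of the 29 genes rose and 2 fell, while 12.2% of all 13869 genes tested rose and 15.8% fell. The genes that rose were *pals-4*, *pals-5*, *pals-6*, *pals-14*, *pals-20*, *pals-33*, *pals-37*, *pals-38*, *pals-39*, *eol-1* and *rcs-1*, and those that fell were *pnp-1* and *cul-6*. With no filter, *pals-2*, *pals-9*, *pals-27*, *pals-30* and *skr-5* were called up as well, which made 16 of 36 up and 2 down beside 11.9% and 14.7% of 15106 genes. The median log2 change of the 36 genes was 0.95, and that of all 15106 genes 0.03.

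**Figure D1:**
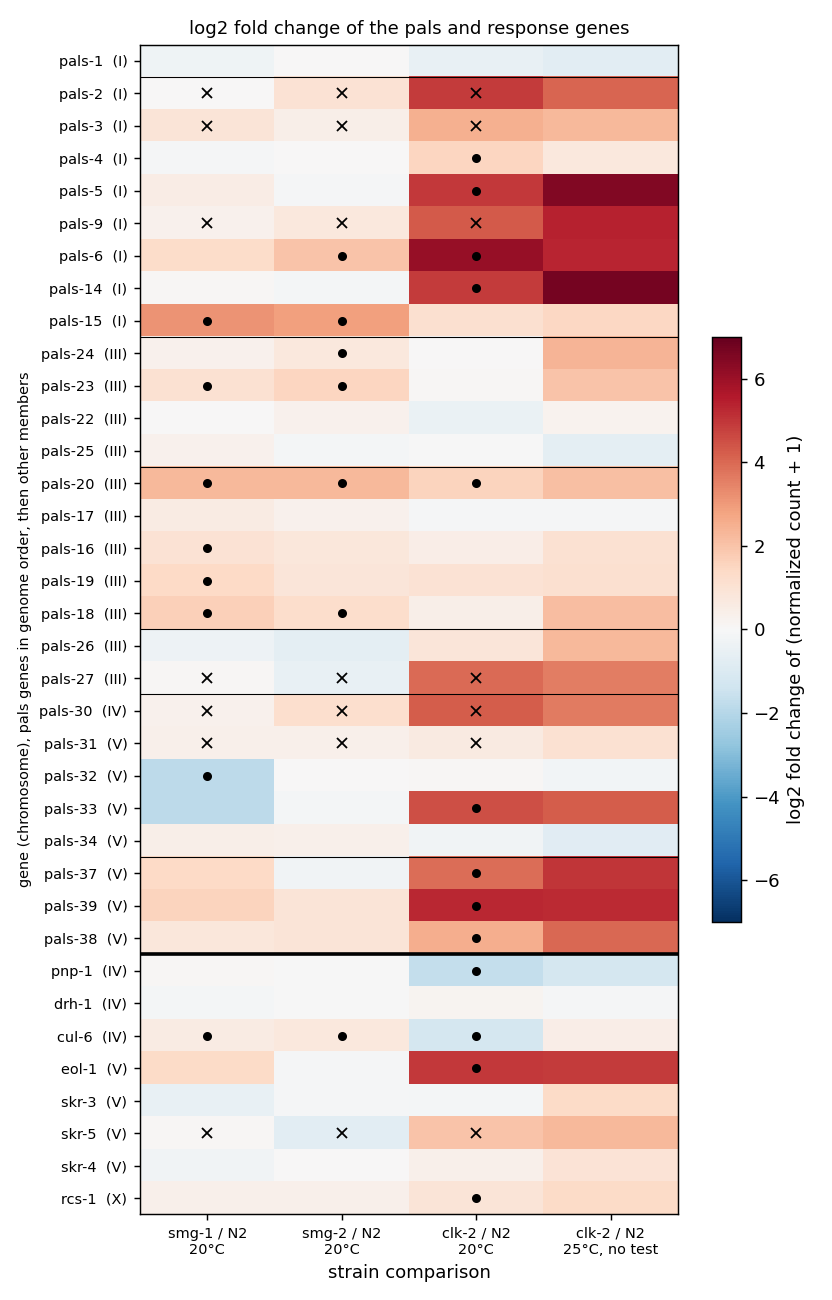
Log2 fold change of (normalized count + 1) for each of the 36 genes, in rows with their chromosome, in *smg-1*, *smg-2* and *clk-2* against N2 at 20°C and in *clk-2* against N2 at 25°C (1 library each, no test). Dots mark genes called by limma and crosses genes below the filter, thin lines set off groups of neighbouring pals genes, and the thick line sets off the 8 genes with other names. The deepest red cells lie in the *clk-2* columns, while the cells of *pals-15*, *pals-20* and *pals-18* are redder in the smg columns at 20°C.

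*pals-5* had 62.1 and 64.3 normalized counts in *clk-2* (24 and 100 reads), against 1.40 and 0.781 in N2 (2 reads and 1 read). It was at 2.13 and 1.71 in *smg-1* and at 0.671 and 1.35 in *smg-2*. Both *clk-2* libraries lay far above all others. The *smg-1* pair lay just above the N2 pair, with 4 reads in all against 3, and was not called, and the *smg-2* pair overlapped it. The log2 fold change in *clk-2* was 4.96 ± 0.53 (SE, limma adjusted p = 0.00014), and the ratio of the summed reads, scaled for depth, was 57.6 with a 95% interval of 19.3 to 283 that covers counting error only. The fitted log2 change of a gene with so few reads in N2 depends on the pseudocount, and ran from 2.72 to 5.86 over the alternatives with adjusted p at most 0.0098. In the same way a pseudocount of 10 lowered the log2 changes below of *pals-6*, *pals-39*, *pals-37*, *pals-38*, *eol-1* and *pals-14* to 3.90, 3.55, 2.26, 1.74, 3.27 and 4.14, all still called.

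In WBcel235 *pals-5* occupies positions 13130813 to 13132466 of chromosome I, minus strand, within a run of 8 measured pals genes, *pals-2*, *pals-3*, *pals-4*, *pals-5*, *pals-9*, *pals-6*, *pals-14* and *pals-15*, that spans 40.4 kb. Its neighbour *pals-6* was at 202 and 127 in *clk-2*, against 2.1 and 0.781 in N2, a log2 change of 6.10 ± 0.44 (limma adjusted p = 2.6e-05). *pals-14* was at 505 and 257 in *clk-2*, against 8.42 and 14.1 in N2, a log2 change of 4.92 ± 0.41 (limma adjusted p = 4.4e-05). These values rest on 195 and 399 reads in *clk-2*, against 12 and 18 in N2. Across the alternatives its change stayed between 4.14 and 5.41.

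*pals-2* had 21 and 24 reads in *clk-2* and 0 in both N2 libraries, at least 20.9-fold more against a floor of 3 reads over both N2 libraries, where the counting interval starts at 16.3. *pals-9* had 11 and 50 reads in *clk-2*, against 0 and 2 in N2, a ratio of 42.5 with a counting interval of 11.3 to 359. *pals-4* was the least stable call of the run, at 69.9 and 27.6 normalized counts in *clk-2*, against 11.9 and 18 in N2, a log2 change of 1.53 ± 0.49 (limma adjusted p = 0.043), called in 10 of 19 settings, which are the fit above and its alternatives. It was lost without *clk-2* replicate 1, at 0.87 (adjusted p = 0.27), and without N2 replicate 1, at 1.25, and also without each smg library, which enter only through the shared spread. Its exons overlap those of *pals-3* on the opposite strand, and no strand setting is stated, so reads from the stretch they share cannot be told apart. *pals-15*, at the other end of the run, was at 23.3 and 16.07 in *clk-2*, against 11.2 and 6.25 in N2, a log2 change of 1.11 ± 0.38 (limma adjusted p = 0.052).

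A run on chromosome V holds *pals-37*, *pals-39* and *pals-38* within 9.56 kb, and each rose in *clk-2*. *pals-39* was at 163 and 123 normalized counts in *clk-2*, against 1.40 and 4.68 in N2, a log2 change of 5.27 ± 0.50 (limma adjusted p = 8.0e-05). *pals-37* was at 64.7 and 38.6 in *clk-2*, against 1.40 and 3.90 in N2, and *pals-38* at 67.3 and 35.4, against 8.42 and 7.03 in N2. The log2 changes of these neighbours were 3.89 ± 0.53 and 2.52 ± 0.40 (limma adjusted p = 0.00061 and 0.0014). No *clk-2* library overlapped an N2 library for any gene of the run. The change of *pals-39* was 4.65 without N2 replicate 1 and 5.89 without N2 replicate 2.

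Single pals genes elsewhere rose too. *pals-33* on chromosome V was at 140 and 85.5 in *clk-2*, against 1.40 and 8.59 in N2, a log2 change of 4.52 ± 0.69 (limma adjusted p = 0.0011). With 2 and 11 reads in N2 its size is uncertain: it was 3.52 without N2 replicate 1, 5.52 without N2 replicate 2, 3.04 at a pseudocount of 10 and 6.65 after thinning, called each time. *pals-30* on chromosome IV had 12 and 30 reads in *clk-2*, against 0 and 1 in N2, a ratio of 58.5 with a counting interval of 9.95 to 2367. *pals-27* on chromosome III had 14 and 32 reads in *clk-2*, against 0 and 3 in N2, a ratio of 21.4 with a counting interval of 6.87 to 107. Its neighbour *pals-26* was at 80.2 and 55.9 in *clk-2*, against 31.6 and 42.9 in N2, a log2 change of 0.85 ± 0.38 that was not called (limma adjusted p = 0.13).

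*eol-1*, on chromosome V and outside the family, was at 145 and 84.9 in *clk-2*, against 2.81 and 2.34 in N2, a log2 change of 4.97 ± 0.43 (limma adjusted p = 5.6e-05). Of a list of 7 other response genes, chosen with earlier results known, 3 were measured, and *eol-1* and *F26F2.1* passed the filter only because of the *clk-2* libraries. *fbxa-182*, an F-box gene, was at 192 and 135 in *clk-2*, against 21 and 29.7 in N2, and *F26F2.1* at 23.3 and 19.3, against 7.01 and 8.59 in N2. Their log2 changes were 2.64 and 1.34 (limma adjusted p = 0.00056 and 0.028). The call of *F26F2.1* held in 11 of 19 settings and was lost without either *clk-2* library, without N2 replicate 1 or without *smg-2* replicate 1 (adjusted p = 0.12, 0.052, 0.097 and 0.0501 without *clk-2* replicate 1, *clk-2* replicate 2, N2 replicate 1 and *smg-2* replicate 1).

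The ligase genes did not move together. *cul-6* fell in *clk-2*, at 171 and 156 normalized counts, against 345 and 439 in N2, a log2 change of -1.25 ± 0.18 (limma adjusted p = 0.00086) that was called in all 20 settings. *rcs-1* rose, at 368 and 325 in *clk-2*, against 177 and 197 in N2, a log2 change of 0.88 ± 0.16 (limma adjusted p = 0.0027), also called in all 20 settings. *fbxa-158*, the F-box gene of the ligase list, rose by 3.14 on the log2 scale (limma adjusted p = 0.0053), with 44.0 and 37.9 normalized counts in *clk-2*, against 2.1 and 6.25 in N2. It passed the filter only because of the *clk-2* libraries.

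The adaptors *skr-3* and *skr-4* were not called. *skr-3* was at 497 and 294 in *clk-2*, against 405 and 426 in N2, and *skr-4* at 137 and 181, against 114 and 137 in N2. Their log2 changes were -0.12 and 0.33 (limma adjusted p = 0.74 and 0.32), with 95% intervals of -0.62 to 0.38 and -0.18 to 0.84. *skr-5* had only 8 and 22 reads in *clk-2*, against 3 and 7 in N2, a ratio of 4.18 with a counting interval of 1.99 to 9.59, and overlaps *lsy-27* on the opposite strand.

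Cullins and adaptors outside the response gave a comparison. Of 7 other cullins and RING subunits 1, *cul-5*, fell in *clk-2*, and their log2 changes lay between -0.61 and 0.31. Of 12 other skr genes tested, *skr-7*, *skr-14* and *skr-15* rose by 2.45, 2.32 and 2.44 on the log2 scale and *skr-19* fell by 0.49 (limma adjusted p = 0.020, 0.0072, 0.019 and 0.028). *skr-7*, *skr-14* and *skr-15* passed the filter only because of the *clk-2* libraries, and their calls were lost without *clk-2* replicate 2, at 1.77, 1.92 and 1.53, and that of *skr-7* also without N2 replicate 2, at 1.91. They are close relatives, so unique reads may not measure them fully. The call of *skr-19* held in 10 of 20 settings and was lost when any single library other than *clk-2* replicate 1 was left out, at -0.54 to -0.39.

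**Figure D2:**
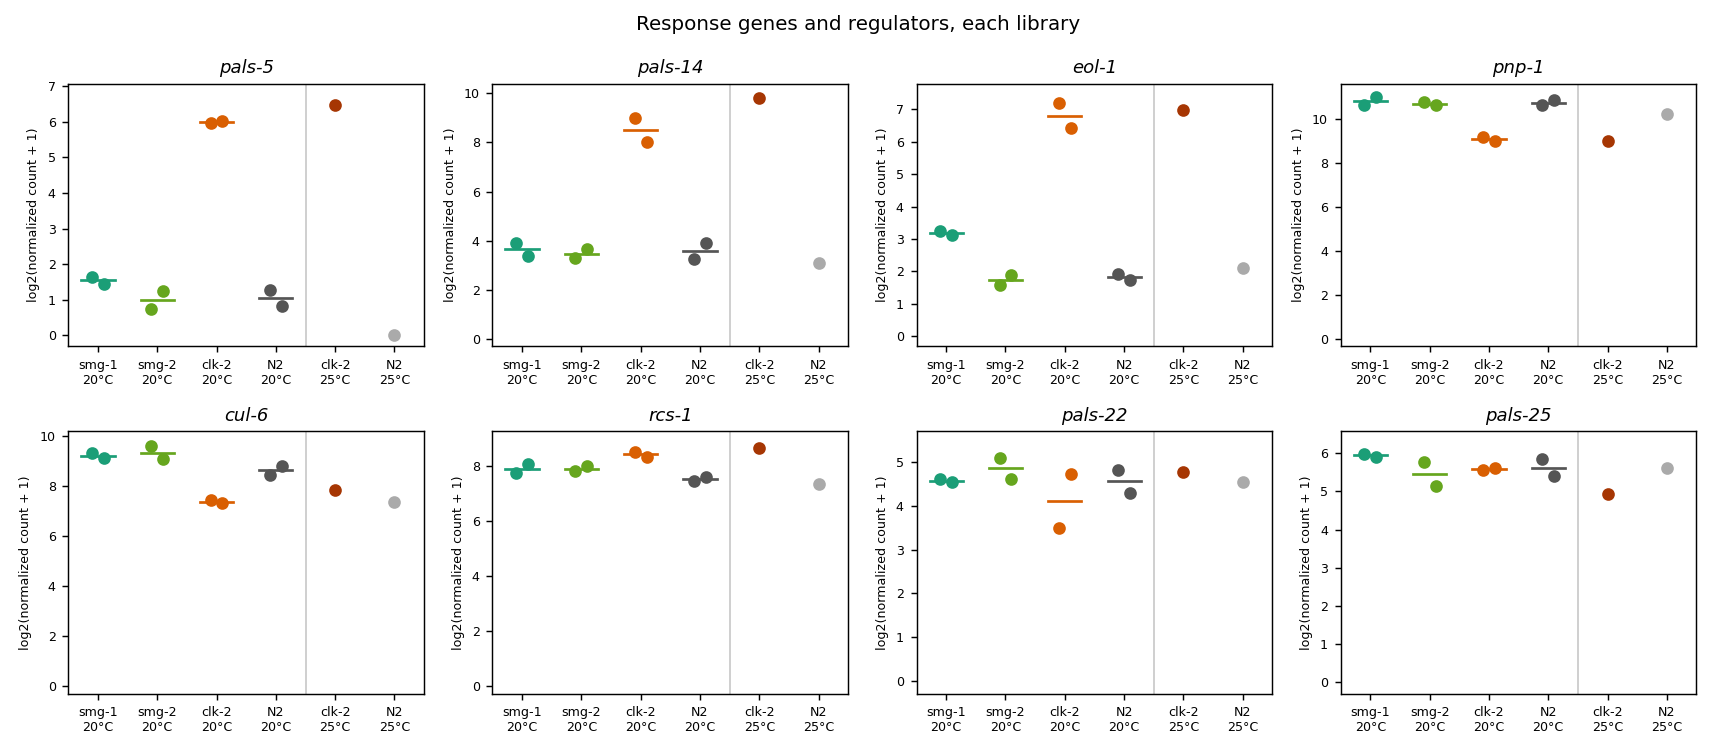
Log2(normalized count + 1) of 8 genes in each library, by strain and temperature, with horizontal lines at the means of the 2 libraries at 20°C and a vertical line between the temperatures. In *clk-2* *pals-5*, *pals-14* and *eol-1* sit far above every other strain, *pnp-1* sits below, and at 20°C *pals-22* and *pals-25* are level with N2 within the spread of the libraries.

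The regulators of the response showed another pattern. *pals-22* was at 10.4 and 25.7 normalized counts in *clk-2*, from 4 and 40 reads, against 27.4 and 18.7 in N2. *pals-25* was at 46.6 and 47.6 in *clk-2*, against 56.1 and 41.4 in N2. Both genes overlapped between the strains. Their log2 changes of -0.44 and -0.03 were not called (limma adjusted p = 0.50 and 0.95), with 95% intervals of -1.41 to 0.53 and -0.65 to 0.58. The interval of *pals-22* reaches past the size of the fall of *cul-6*, so a fall of that size is not excluded. Without *clk-2* replicate 1, the library with 4 reads of it, *pals-22* stood at 0.18, and without replicate 2 at -1.06, neither of them called.

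Of the listed regulators, *pnp-1* fell. It was at 564 and 505 in *clk-2*, against 1561 and 1808 in N2, and fell by 1.65 ± 0.14 on the log2 scale (limma adjusted p = 5.2e-05), in all 20 settings between -1.76 and -1.55. *pals-20*, of which worm studies describe a positive role in the response, was at 28.5 and 20.6 in *clk-2*, against 5.61 and 10.2 in N2, a rise of 1.55 ± 0.34 (limma adjusted p = 0.0086). That call was lost without *clk-2* replicate 1, at 1.33 (adjusted p = 0.0503), in a fit of these strains alone and after thinning all libraries to the shallowest.

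Of the 10 genes listed as regulators, 1 rose and 1 fell in *clk-2*, near the 12.2% and 15.8% of all genes tested, and the list's median log2 change was -0.0043, beside 0.02 for all genes tested. The transcription factor gene *zip-1* was at 98.4 and 120 in *clk-2*, against 123 and 102 in N2, and was not called. *pals-17*, a repressor in worm studies, was at 127 and 89.4, against 109 and 118.7 in N2, and *drh-1* at 989 and 978, against 871 and 831 in N2. *drh-1* changed by 0.21 on the log2 scale, not called (limma adjusted p = 0.14), and the 6 antiviral RNA interference genes, *drh-1* among them, lay between -0.08 and 0.29.

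Set against the regulators within each library, where a shared scaling cancels except for the 1 that is added, *pals-5* and *cul-6* moved apart. The log2 ratio of *pals-5* to *pals-25* was 0.41 and 0.43 in *clk-2*, against -4.57 and -4.57 in N2, a difference of 4.99. The ratio of *pals-5* to *pals-22* was 2.47 and 1.29 in *clk-2*, against -3.56 and -3.47 in N2, a difference of 5.40. At a pseudocount of 10 these differences were 2.75 and 3.00. The ratio of *cul-6* to *pals-25* was 1.85 and 1.69 in *clk-2*, against 2.60 and 3.38 in N2, a difference of -1.22. An exact two-sided permutation test gave p = 0.33 for each of these, the smallest that 2 against 2 libraries allow. For *cul-6* to *pals-22* the same permutation test gave p = 0.67, the libraries overlapped and the difference was -0.81. At 25°C, with 1 library a strain and no test, *cul-6* lay on the same side as *pals-5*. There the differences to *pals-25* and *pals-22* were 1.19 and 0.27 for *cul-6* and 7.17 and 6.25 for *pals-5*.

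Per kilobase of exon, the order of the 4 genes in N2 was *cul-6* with 172 normalized counts, *pals-25* with 45.4, *pals-22* with 25.8 and *pals-5* with 0.994. In *clk-2* it was *cul-6* with 71.6, *pals-5* with 57.5, *pals-25* with 43.9 and *pals-22* with 20.2. *pals-5* thus stood last in N2 and between *cul-6* and *pals-25* in *clk-2*. *pals-24* and *pals-23*, next to *pals-22* on chromosome III, were the highest pals genes per kilobase in N2, with 695 and 284.

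**Figure D3:**
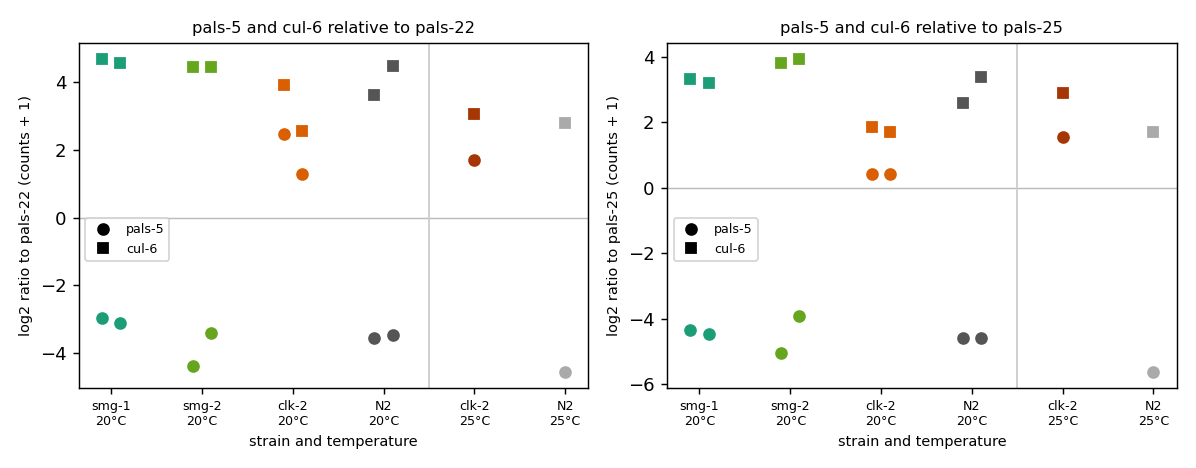
Log2 ratio of *pals-5* (circles) and of *cul-6* (squares) to *pals-22* (left) and to *pals-25* (right) in each library, computed from normalized counts + 1. The *pals-5* ratios lie above 0 in each *clk-2* library and below 0 in each of the others, and the *cul-6* ratios to *pals-25* at 20°C are lowest in *clk-2*.

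Other members of the family rose in the smg mutants. In *smg-1*, 7 of the 29 genes rose and 1 fell, beside 12.3% and 9.25% of all genes tested. In *smg-2*, 7 rose and 0 fell, beside 8.12% and 0.981%. In *smg-2*, 11 of the 29 genes had an unadjusted p under 0.05, beside 21.4% of all genes tested, and edgeR and DESeq2 called 7 each. With no filter the counts were again 7 and 1 of 36 in *smg-1*, beside 11.5% and 8.22% of 15106 genes, and 7 and 0 in *smg-2*, beside 7.53% and 0.794%. The genes called up in both mutants were *pals-15*, *pals-18*, *pals-20*, *pals-23* and *cul-6*. Both comparisons share the N2 libraries, so this overlap is not independent. Cell type markers moved in the smg mutants too. Of the 34 sperm markers 20 fell and 1 rose in *smg-1* and 7 fell and 1 rose in *smg-2*, with sums of 17955 and 17871 in *smg-1* and 21643 and 18970 in *smg-2*, against 26071 and 32747 in N2. In *smg-1*, 3 of 5 germline, 2 of 3 body muscle and 1 of 4 hypodermis markers fell, and 2 of 6 intestine markers rose, with intestine sums of 27977 and 29943, within the N2 range. In *smg-2* no germline, muscle, hypodermis or intestine marker was called. Of 4 neuron markers 1 rose in each mutant, *unc-119*, by 1.19 in *smg-1* and 1.38 in *smg-2*. As in *clk-2*, the reporters of these strains are listed with *unc-119(+)*. The part of these markers in the results was not tested.

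*pals-15* was at 70.3 and 99.4 normalized counts in *smg-1* and at 53.0 and 84.7 in *smg-2*, against 11.2 and 6.25 in N2. It rose by 3.17 ± 0.38 and 2.85 ± 0.38 on the log2 scale (limma adjusted p = 0.00037 and 0.00079), in all 19 settings that tested it. No smg library came near an N2 library. It is the last gene of the chromosome I run, and it was the 1 gene of that run called in *smg-1*.

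*pals-23* was at 818 and 975 in *smg-1* and at 1278 and 1123 in *smg-2*, against 457 and 388 in N2. The rises of 1.08 ± 0.14 and 1.51 ± 0.14 (limma adjusted p = 0.00054 and 6.2e-05) were called in all 20 settings. *pals-24*, its upstream neighbour on the same strand, was at 872 and 857 in *smg-1* and at 1231 and 1071 in *smg-2*, against 607 and 799 in N2. It rose in *smg-2* by 0.72 ± 0.18 (limma adjusted p = 0.033), in 14 of 20 settings, with adjusted p up to 0.25 without *smg-2* replicate 1 and 0.11 without N2 replicate 1, 0.10 without *smg-2* replicate 2 and 0.07 without either *smg-1* library. Its 0.31 in *smg-1* was not called. The next genes of the same run, *pals-22* and *pals-25*, were called in neither mutant: *pals-22* was at 23.4 and 22.3 in *smg-1* and at 33.5 and 23.7 in *smg-2*, and *pals-25* at 61.8 and 59.1 and at 53.7 and 34.5.

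Another run on chromosome III holds *pals-20*, *pals-17*, *pals-16*, *pals-19* and *pals-18* within 19.3 kb, and its 5 log2 changes were above 0 in both smg mutants. *pals-20* was at 42.6 and 39.4 in *smg-1* and at 39.6 and 42.7 in *smg-2*, against 5.61 and 10.2 in N2, a rise of 2.29 ± 0.34 in each (limma adjusted p = 0.0016 and 0.0018). The *smg-2* call was lost after thinning to the shallowest library, at 1.90 (adjusted p = 0.057), and a pseudocount of 10 gave 1.52 and 1.53, both called. *pals-18* was at 127 and 125 in *smg-1* and at 97.9 and 86.7 in *smg-2*, against 39.3 and 37.5 in N2, a rise of 1.69 ± 0.21 and 1.24 ± 0.21 (limma adjusted p = 0.00044 and 0.0033). Without *smg-2* replicate 1 the call of *pals-18* in *smg-2* was lost, at 1.16 (adjusted p = 0.054). *pals-16* and *pals-19* rose in *smg-1* by 1.0 and 1.37 (limma adjusted p = 0.026 and 0.022), in 11 and 15 of 19 settings, and were not called in *smg-2*, where the values were 0.77 and 0.85. Both *smg-1* calls were lost without either *smg-1* library or without N2 replicate 1, where the changes were 0.85 and 0.96 (adjusted p = 0.11 and 0.098), and that of *pals-16* also without either *smg-2* library. *pals-20* overlaps the gene *Y82E9BR.5* on the opposite strand, and the last exons of *pals-19* overlap *pals-18*, so reads of these pairs may be shared.

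*pals-17*, the repressor in that run, was at 153 and 192 in *smg-1* and at 134 and 146 in *smg-2*, against 109 and 118.7 in N2. Every smg library lay above both N2 libraries, but the log2 changes of 0.59 and 0.29 were not called (limma adjusted p = 0.071 and 0.48).

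**Figure D4:**
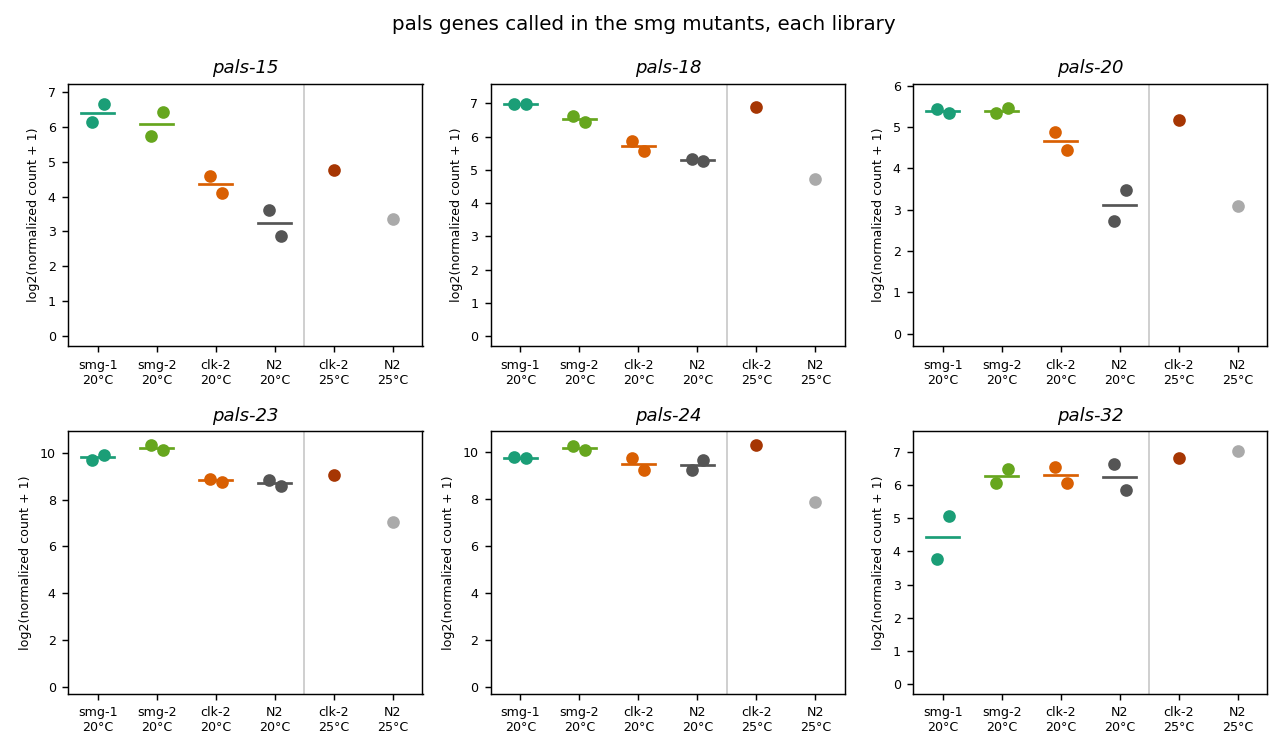
Log2(normalized count + 1) of 6 pals genes in each library, by strain and temperature, with horizontal lines at the means of the 2 libraries at 20°C and a vertical line between the temperatures. *pals-15*, *pals-18*, *pals-20* and *pals-23* are higher in the 4 smg libraries than in both N2 libraries, *pals-32* is lower in *smg-1*, and *pals-23* and *pals-24* are lowest in N2 at 25°C.

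*cul-6* rose in both smg mutants. It was at 625 and 545 normalized counts in *smg-1* and at 757 and 540 in *smg-2*, against 345 and 439 in N2. The log2 changes were 0.58 ± 0.18 and 0.71 ± 0.18 (limma adjusted p = 0.048 and 0.038), called in 12 and 14 of 20 settings, so both calls lie close to the threshold. Without N2 replicate 1 the changes were 0.41 and 0.54 (adjusted p = 0.20 and 0.12), and without *smg-2* replicate 1 the change in *smg-2* was 0.47 (adjusted p = 0.33). The *smg-1* call was also lost when any single *smg-1* or *clk-2* library was left out, and the *smg-2* call when any single *smg-1* library was. *pals-6* rose in *smg-2*, with 13 and 12 reads, against 3 reads and 1 read in N2, a log2 change of 2.0 ± 0.44 (limma adjusted p = 0.018) called in 12 of 19 settings and lost at a pseudocount of 10, at 0.69, after quantile normalization, at 1.23, after thinning, in a fit of these strains alone, without N2 replicate 2, at 1.60, and without either *smg-2* library, at 1.96 and 2.05.

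*pals-32* fell in *smg-1*, at 12.8 and 32.5 normalized counts, against 98.2 and 57.0 in N2, a log2 change of -1.82 ± 0.42 (limma adjusted p = 0.015). Without *smg-1* replicate 1 it was -1.18 and without N2 replicate 1 -1.43 (adjusted p = 0.11 and 0.066). In *smg-2* it was at 65.7 and 88.1 and overlapped N2. In the direct comparison of *smg-1* with *smg-2* *pals-32* had the lowest adjusted p of the 29 genes, 0.09, and 0 of them were called, beside 0.447% up and 0.498% down of all genes tested. There 6 of the 29 had an unadjusted p under 0.05, beside 13.5% of all genes tested, edgeR called 0 and DESeq2 called 1.

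Other response genes were mostly not called in the smg mutants, and *fbxa-182* rose in *smg-1* by 1.47 (limma adjusted p = 0.018), a call lost without *smg-1* replicate 2, at 1.14, and without N2 replicate 1, at 1.23. *eol-1* was at 8.52 and 7.71 in *smg-1* and at 2.01 and 2.71 in *smg-2*, against 2.81 and 2.34 in N2. The *smg-1* libraries lay above N2, with a log2 change of 1.35 that was not called (limma adjusted p = 0.051). *pals-14* was at 13.8 and 9.42 in *smg-1* and at 8.72 and 11.5 in *smg-2*, all within the N2 range of 8.42 to 14.1. *pnp-1* was at 1562 and 2018 in *smg-1* and at 1700 and 1555 in *smg-2*, against 1561 and 1808 in N2, and was called in neither. Of the 10 listed regulators 2 rose in *smg-1* and 1 in *smg-2*, beside 12.3% and 8.12% of all genes tested, the latter near that share. They were *pals-20* in both and *pals-16* in *smg-1*.

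Direct tests of *clk-2* against the mean of *smg-1* and *smg-2* use no N2 library as a reference. They called 12 of the 29 genes higher and 7 lower in *clk-2*, beside 20.7% and 25.6% of all genes tested, and with no filter 17 of 36 higher and 7 lower, beside 19.7% and 24.3%. Higher in *clk-2* were *pals-4*, *pals-5*, *pals-6*, *pals-14*, *pals-26*, *pals-33*, *pals-37*, *pals-38*, *pals-39*, *eol-1*, *rcs-1* and *drh-1*. Lower were *pals-15*, *pals-17*, *pals-18*, *pals-23*, *pals-24*, *pnp-1* and *cul-6*. Of the genes called higher, *pals-5*, *pals-6*, *pals-33*, *pals-37*, *pals-39* and *eol-1* passed the filter only because of the *clk-2* libraries. *pals-2*, *pals-9*, *pals-27*, *pals-30* and *skr-5*, added with no filter, had means of 0.34 to 3.18 in the other strains at 20°C. The counts of higher genes thus cannot be read against the shares of all genes, and the counts of lower genes were not above those shares. *cul-6* differed by -1.90 ± 0.16 and *pals-15* by -1.90 ± 0.33 (limma adjusted p = 1.4e-05 and 0.0011), against 4.74 ± 0.46 for *pals-5* and 4.95 ± 0.35 for *pals-14* (limma adjusted p = 3.2e-05 and 6.1e-06). *pals-20* differed by -0.74 ± 0.30, not called (limma adjusted p = 0.068). *pals-22* and *pals-25* differed by -0.60 and -0.11 and were not called (limma adjusted p = 0.22 and 0.72). Without *clk-2* replicate 1 the calls of *pals-4*, *pals-26*, *rcs-1* and *drh-1* were lost, at 0.88, 1.1, 0.42 and 0.27. Without *clk-2* replicate 2 those of *pals-17*, *pals-24* and *drh-1* were lost, at -0.29, -0.23 and 0.28, and *pals-22* was called lower, at -1.22 (adjusted p = 0.030). Leaving out single smg libraries also ended the calls of *pals-17*, *pals-24* and *drh-1*, with adjusted p between 0.066 and 0.11.

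Library pairs that did not overlap were counted for the 36 genes, and were common over all genes too. In *clk-2* the pair of libraries stood above the N2 pair for 25 genes and below it for 4, beside 30.1% and 28% of all 15106 genes. For *smg-1* the counts were 18 and 5, beside 30% and 31.1%, and for *smg-2* 16 and 2, beside 25.8% and 25%. The *clk-2* count above N2 includes genes that may be in the table for their level in *clk-2* alone.

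At 25°C there was 1 library a strain and no test, so values past 2-fold are descriptions. In *clk-2*, 25 of the 36 genes lay more than 2-fold above N2 and 1, *pnp-1*, below, beside 14.3% and 7.16% of all genes. The 25 include genes that may be in the table for their level in *clk-2* alone. *pals-5* had 30 reads in *clk-2* and 0 in N2, at least 35.3-fold more against a floor of 3 reads, where the counting interval starts at 26.9. *pals-14* had 890 normalized counts in *clk-2*, against 7.47 in N2, a ratio of 119.1 with a counting interval of 61.9 to 263. *eol-1* had 126, against 3.32 in N2. *pals-37*, *pals-39* and *pals-38* had 58.5, 219 and 70.2 in *clk-2*, against 0.830, 4.98 and 3.32 in N2. The *clk-2* library held only 3051836 reads, and *pals-22* and *pals-25* had 9 and 10 reads in it, at 26.3 and 29.3 normalized counts, against 22.4 and 48.1 in N2.

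*pals-24* and *pals-23* stood apart between the strains at 25°C and overlapped at 20°C. *pals-24* was at 1241 in *clk-2* at 25°C, against 236 in N2 at 25°C, and *pals-23* at 524, against 130 in N2, ratios of 5.26 and 4.02 with counting intervals of 4.52 to 6.14 and 3.23 to 5.01. At 20°C the same genes were at 852 and 605 and at 474 and 432 in *clk-2*, against 607 and 799 and 457 and 388 in N2. *cul-6* was at 225 in *clk-2* at 25°C, against 160 in N2 at 25°C, so the lower level in *clk-2* at 20°C was not seen there. *pnp-1* was at 509 in *clk-2*, against 1180 in N2, on the same side as at 20°C.

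Between temperatures, N2 at 25°C lay more than 2-fold above N2 at 20°C for 2 of the 36 genes, *pals-2* and *pals-6*, and below for 5, *pals-5*, *pals-23*, *pals-24*, *pals-38* and *cul-6*, beside 1.69% and 3.83% of all genes. *pals-2* rests on 3 reads at 25°C against 0 at 20°C and *pals-5* on 0 reads at 25°C against 2 reads and 1 read, and *pals-38* on 4 reads at 25°C against 12 and 9, so that the counting interval of each of these 3 ratios holds equal levels. *clk-2* at 25°C lay above *clk-2* at 20°C for *pals-6*, *pals-14*, *pals-18* and *pals-26*, and below for 0, beside 4.91% and 4.49%. *pals-6* was at 413 and *pals-14* at 890 in *clk-2* at 25°C, against at most 202 and 505 at 20°C. The 3 heat shock genes measured summed to 483 normalized counts in *clk-2* and 1872 in N2 at 25°C, against 51.8 and 48.2 in *clk-2* and 109 and 168 in N2 at 20°C. Their part in these values was not tested.

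The summed level of the 28 pals genes was 2451 and 2713 normalized counts in *smg-1*, 3229 and 2963 in *smg-2* and 3409 and 2377 in *clk-2*, against 1578 and 1698 in N2. It was 4659 in *clk-2* and 948 in N2 at 25°C. The N2 sums were the lowest at each temperature. *pals-1* and *pals-34* were called in none of the comparisons and lay between 12.9 and 31.7 normalized counts in the 10 libraries, and *pals-31* and *pals-3* had at most 14 reads in any library.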

How the data were processed

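Per the labels and the study's methods, the authors depleted rRNA, prepared libraries with the ScriptSeq kit, aligned them with STAR 2.5.4a to WBcel235, kept unique matches, counted those on protein-coding exons and scaled the counts with DESeq2. The labels also name a TruSeq kit. Each deposited value is a signal, reads divided by 1 size factor per library. Of the values 100.0% came out as whole reads (tolerance 0.001), and 0 columns were left without a sample. Genes with near-identical copies are measured on their unique parts, and the strand setting is not given in the sources used here.

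In R 4.3.3, limma 3.58.1 (lmFit, then eBayes, trend on) was fitted to log2(value + 1) in the 8 libraries at 20°C for the 13869 genes whose mean was 10 or more. The 95% intervals of read ratios and floors of 3 reads cover counting error only. The 95% intervals of log2 changes come from limma and reflect the spread between libraries. Read ratios used exact binomial (Clopper-Pearson) intervals. The 25°C libraries have no test. Gene positions come from Ensembl release 115 of WBcel235, whose annotation held 14967 of the IDs, while 14720 had a symbol. Neighbouring pals genes less than 20 kb apart were grouped. Alternatives were pseudocounts of 0.1 and 10, no filter, a minimum mean of 100, the 2-fold rule with unadjusted p, separate fits, a replicate block, quantile normalization, edgeR 4.0.16 and DESeq2 1.42.0 on the whole reads, and leaving out each library. A crossed block and thinning of reads to the shallowest library were added after seeing the data. On simulated reads of 13869 genes for *clk-2* against N2, limma recovered 47% of 2-fold and 99% of 4-fold changes and called 17 unchanged genes. The simulation gave every gene and strain the same relative spread beyond counting error. In the data the spread between replicates differed by strain, so these figures need not hold for them or for genes with few reads.

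The members, lists and rules were chosen with earlier results of these data known. Named were the markers and other genes outside the family, pals genes called against N2, the 5 other pals genes with the highest mean, and those at least 4-fold apart at 25°C with 10 reads or more. *pals-1*, *pals-3*, *pals-31* and *pals-34* fall outside this rule and are named only by their ranges.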

Additional observations from a re-analysis of the deposited data

Results flagged for a closer look

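For 11 genes the 25°C library of *clk-2* lay above both 20°C libraries of *clk-2* while the 25°C library of N2 lay below both 20°C libraries of N2. The difference between the temperature changes, *clk-2* minus N2 on the log2 scale, was 2.35 for *pals-24*, 1.90 for *pals-23*, 1.79 for *pals-14*, 1.74 for *cul-6*, 1.73 for *pals-18*, 1.52 for *pals-5*, 1.52 for *pals-38*, 1.47 for *skr-3*, 1.44 for *pals-26*, 0.65 for *skr-4* and 0.43 for *rcs-1*. For *drh-1* the 25°C library of *clk-2* lay below both 20°C libraries and that of N2 above both, a difference of -0.29. With 1 library a strain at 25°C these differences were not tested, and *pals-5* had at most 2 reads and *pals-38* at most 12 in any N2 library. N2 was moved to 25°C as well, so a change with heat that both strains share is subtracted in these differences. Loss of CLK-2 function at 25°C and a response to heat that differs between the strains cannot be told apart in them.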

How the results depend on the processing

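Numbers of genes called are up and down together. The share of all genes called under each setting is not given here or below. Whether these genes or all calls changed can therefore not be seen from the numbers. With a minimum mean of 100, where 10 members remained, the counts were 2 in *smg-1*, 3 in *smg-2*, 4 in *clk-2* and 8 for *clk-2* against the smg mutants, since fewer genes were tested. Leaving out 1 library gave 4 to 10 in *smg-1*, 3 to 7 in *smg-2*, 11 to 14 in *clk-2*, 15 to 21 for *clk-2* against the smg mutants and 0 to 1 between the smg mutants. The lowest were 4 and 5 without *smg-1* replicate 1 and 2, and 3 without *smg-2* replicate 1. Between the smg mutants, separate fits called 4, DESeq2 1, thinning 1, each fit that left out an N2 library 1, and the 2-fold rule 4. The cause was not tested. The difference in the ratio of *pals-5* to *pals-22* between *clk-2* and N2 was 6.25 at a pseudocount of 0.1 and 3.00 at 10, and for *pals-25* 5.82 and 2.75. Without 1 library these ratios ran from 4.80 to 5.99 and from 4.98 to 5.0, and those of *cul-6* from -1.49 to -0.12 and from -1.60 to -0.83.

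The 57 results followed for single genes were the calls of named genes, and *pals-5*, *pals-22*, *pals-25* and *cul-6* called or not. Among these, edgeR and the fit with no filter changed 0 calls, while fits that left out 1 library lost calls. Calls gained by other genes are not among the 57. In *smg-1* edgeR called 9 genes, beside 8 in the main fit. With no filter 18 were called in *clk-2*, beside 13. No called gene changed direction under these alternatives. Values not called did. Those far from 0 in some setting include *pals-33* in *smg-1*, from -3.55 to 0.92 over the alternatives and called lower in 3 of 19 settings, *pals-6* and *pals-14* in *smg-1*, from -0.57 to 1.78 and from -1.11 to 0.40, and *pals-39* in *smg-2*, from -0.46 to 1.53. In *smg-1*, *pals-5* was -0.37 and *pals-22* -0.36 after quantile normalization, and *pals-22* was -0.0017 with DESeq2, -0.024 without *smg-1* replicate 1, 0.27 without N2 replicate 1 and -0.25 without N2 replicate 2. In *smg-2*, *pals-5* was 0.19 without *smg-2* replicate 1, -0.31 without *smg-2* replicate 2 and 0.16 without N2 replicate 1, and *pals-25* was 0.15 without *smg-2* replicate 2, -0.47 without *smg-2* replicate 1 and 0.057 without N2 replicate 1. In *clk-2*, *pals-22* was 0.18 without *clk-2* replicate 1 and -1.06 without *clk-2* replicate 2, and *pals-25* was 0.28 after thinning and 0.18 without N2 replicate 1. Against the smg mutants, *pals-22* was 0.018 without *clk-2* replicate 1 and -1.22 without *clk-2* replicate 2, and *pals-25* was 0.16 after quantile normalization, 0.017 after thinning and 0.041 without *smg-2* replicate 1.

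Whether replicate numbers pair the samples was not settled. Replicate differences correlated between -0.27, for *clk-2* with N2, and 0.10, for *smg-2* with N2, over pairs of strains. A batch shared by libraries of different numbers is not excluded by these values. With a replicate block, 7 genes were called in *smg-1*, 5 in *smg-2*, 12 in *clk-2*, 19 for *clk-2* against the smg mutants and 0 between them, and with the *clk-2* numbers crossed 10, 7, 15, 20 and 0. In the *clk-2* libraries with fewest reads, genes with under 10 reads have wide intervals.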
